A study of Mus musculus with 6 samples.

Results

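The 10 genes described here encode proteins of the piRNA pathway and were taken by name from the 53657 gene names counted in every sample: *Piwil1*, *Piwil2*, *Piwil4*, *Ddx4*, *Tdrd1*, *Tdrd9*, *Mov10l1*, *Mael*, *Asz1* and *Pld6*. All 10 were found, and all 10 passed the filter on low counts. RNA was sequenced from undifferentiated spermatogonia, the adult germ cell population that holds the spermatogonial stem cells, of 3 WT and 3 MUT mice, 1 mouse per sample. Both groups carried *Gfra1-creERT2*, a tamoxifen-inducible Cre driven by the *Gfra1* promoter, and a Cre-dependent *tdTomato* reporter, and both received tamoxifen. MUT mice also carried the *FR-Hras*G12V allele, in which Cre removes a wild-type copy of *Hras* and leaves the oncogenic G12V copy at the endogenous locus of 1 chromosome, whereas WT mice were littermates without that allele. All mice were adults on a mixed genetic background, and the cells were sorted as tdTomato+ and MCAM-bright 3 months after induction. Recombination was thus limited to cells that had expressed *Gfra1* and to their descendants.

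piRNAs are small RNAs of the germ line that guide PIWI proteins, a branch of the Argonaute family, to transposon transcripts. In the cytoplasm they direct cleavage of those transcripts, and in fetal germ cells the nuclear PIWI protein also directs DNA methylation of transposon copies. Precursor RNAs are unwound and cut at the outer surface of mitochondria and in perinuclear granules, where Tudor proteins hold PIWI proteins by their methylated arginines. Of the PIWI genes, *Piwil2* (MILI) is known through most of male germ cell life, *Piwil4* (MIWI2) is best known from fetal prospermatogonia, and *Piwil1* (MIWI) from pachytene spermatocytes and round spermatids. Males lacking any of these pathway proteins are sterile in most reported mouse knockouts.

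The promoter sequences of these genes are given first, because a motif found without use of the expression values recurs in most of those at hand. RefSeq promoter windows of 300 bases (250 before and 50 after an annotated start, GRCm38.p6) were at hand for 9 of the 10 genes, as 13 windows. Each window was searched on both strands for the E-box CACGTG, a palindrome read by basic helix-loop-helix factors, for the MYB motif AACNGT and for the CCAAT box, CCAAT. *Piwil1* had a pair of E-boxes. Its stretch upstream of the nearest counted exon, chr5:128735996-128736173 on the plus strand, is shown with both in capitals.
Piwil1: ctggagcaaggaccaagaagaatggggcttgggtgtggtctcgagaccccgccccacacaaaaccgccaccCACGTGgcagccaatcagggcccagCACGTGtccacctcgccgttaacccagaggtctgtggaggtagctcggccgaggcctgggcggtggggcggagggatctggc

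The E-boxes began 179 and 154 bases before the RefSeq start, which lies inside the *Piwil1* gene of the deposited annotation and not at its outermost exon. The other genes with the motif are shown as 30 bases holding each match, again 5′ to 3′ on the gene's own strand with the E-box in capitals, so that the flanks can be compared.
Ddx4, chr13:112652322-112652351, minus strand: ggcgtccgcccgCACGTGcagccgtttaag
Tdrd1, chr19:56826186-56826215, plus strand: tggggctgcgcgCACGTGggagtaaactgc
Tdrd9, chr12:111971382-111971411, plus strand: ggtctccataaaCACGTGcctgtccaggtc
Tdrd9, chr12:111971452-111971481, plus strand: gcacgaggctccCACGTGcatgcagggcct
Mov10l1, chr15:88982744-88982773, plus strand: ccttCACGTGctaaccgccaacctctcgtg
Mael, chr1:166238950-166238979, minus strand: taccaggcctacCACGTGacaatccccgcc
Pld6, chr11:59787673-59787702, minus strand: ggggcgggctggCACGTGttgggcgcgcaa

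Measured to its first base, the E-box stood 29 bases before the start in *Ddx4*, 33 in *Pld6*, 165 and 95 in *Tdrd9*, 223 in *Mael* and 246 in *Mov10l1*. In *Tdrd1* 1 site was seen from a pair of windows, 11 and 77 bases before their starts. The *Ddx4* site lies within an exon of the annotation used for counting, and the other sites lie outside exons. The motif was present in at least 1 window of 7 of the 9 genes (77.8%), against 2187 of 27025 genes with a window (8.09%) and 1325 of the 11851 such genes whose expression was tested here (11.2%). Promoters rich in CpG hold the motif more often, and among windows with at least 10 CpG dinucleotides the share was 10.9%, against 7.15% of all windows. It was not found in the windows of *Piwil4* and *Asz1*. The MYB motif was found in 3 of the 9 genes (33.3%, against 28.9% of all genes) and the CCAAT box in 6 (66.7%, against 41.1%). These are counts of letters in short windows, given without a test, and binding of any factor was not measured.

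**Figure D1:**
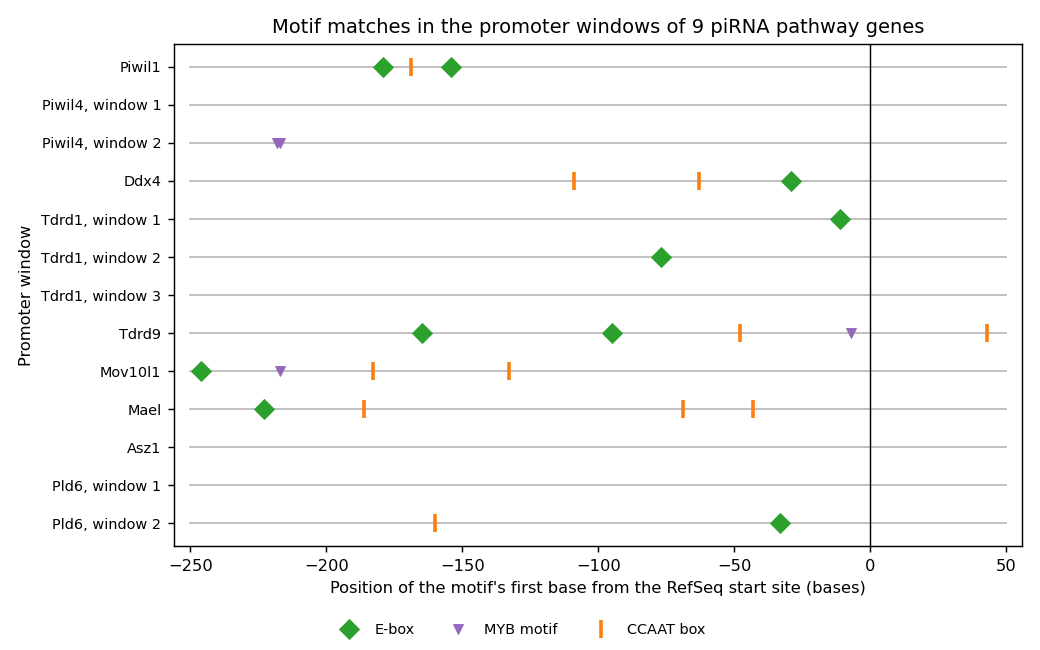
Motif matches in the 13 RefSeq promoter windows of 9 piRNA pathway genes, plotted by the distance in bases of the motif's first base from the annotated start (vertical line at 0). Green diamonds are E-boxes, purple triangles MYB motifs and orange bars CCAAT boxes, and 7 of the 9 genes have at least 1 E-box.

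The libraries differed little in depth, with 22729292 to 23550433 fragments counted per sample, and 3 counts corresponded to between 0.127 and 0.132 CPM (counts scaled to a common library size), far below the level of each of the 10 genes. *Hras* had 1300, 1407 and 1542 counts in WT and 1600, 1594 and 1426 in MUT, and these counts do not tell the alleles apart. The *tdTomato* log2 fold change between the groups was -0.01. Of the 9 markers of undifferentiated spermatogonia listed for this work none was at 0 in every sample, and their summed level was 651.2 to 960.2 TPM (a level per exon length and library size) in WT and 712.7 to 903.8 in MUT. The samples were not free of later germ cells: 12 meiotic markers summed to 1357 to 2245 TPM in WT and 1490 to 1897 in MUT, and 6 spermatid markers to 5079 to 8225 in WT and 3433 to 6612 in MUT. Macrophage markers summed to 691.6 to 1283 TPM over all samples, and B lineage markers to 278.5 to 1542 in WT and 50.92 to 339.1 in MUT. Sertoli, Leydig, peritubular myoid, endothelial and red blood cell markers each summed to 140.5 TPM or less in every sample. The part of these cells in the values below was not tested, and in bulk RNA fewer cells of a type and less RNA per cell cannot be told apart.

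All 10 genes were expressed, over a range from 22.9 to 787 TPM, which, being per length, allows levels to be compared between genes. Their means over the 6 samples fell in the order *Mael*, *Ddx4*, *Piwil2*, *Mov10l1*, *Tdrd1*, *Tdrd9*, *Asz1*, *Pld6*, *Piwil4* and *Piwil1*. Together *Mael*, *Ddx4*, *Piwil2* and *Mov10l1* carried 27.3%, 21.7%, 15.0% and 13.2% of the summed level of the set. Neighbours in the order had sample ranges that did not overlap, with 3 exceptions. *Piwil2* and *Mov10l1* overlapped, although *Piwil2* was the higher in 6 of 6 samples, and so did *Tdrd1* and *Tdrd9*, with *Tdrd1* the higher in 6 of 6. *Tdrd9* and *Asz1* overlapped and *Tdrd9* was the higher in 5 of 6.

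**Figure D2:**
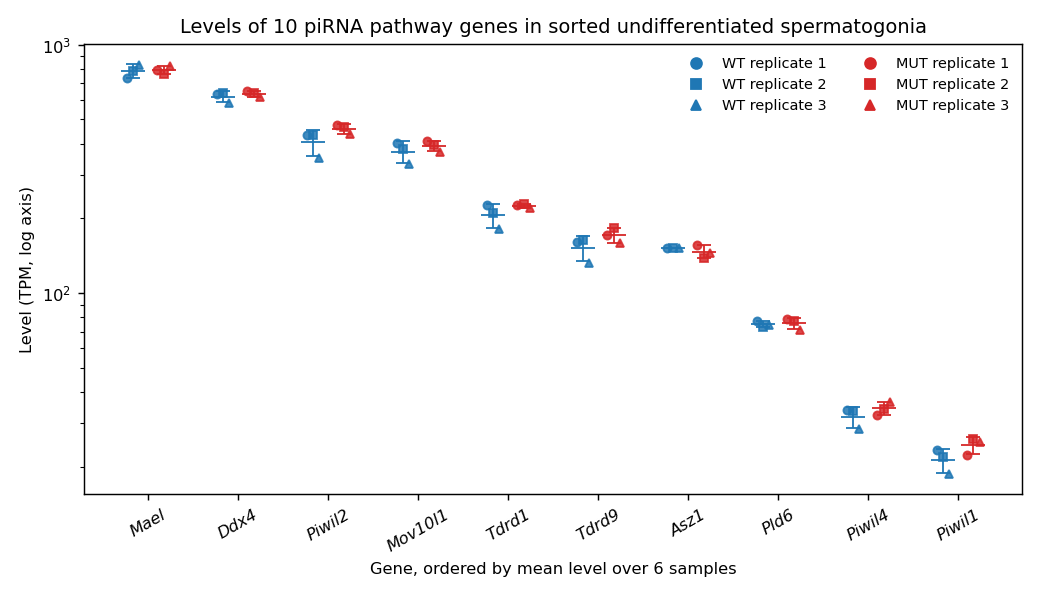
Level of each of the 10 piRNA pathway genes in TPM on a log axis, ordered by mean level, with WT in blue and MUT in red. Points are single samples (circle, square and triangle for replicates 1, 2 and 3), horizontal bars are group means and error bars are SD (n = 3). *Mael* is highest at 734.3 to 830.9 TPM and *Piwil1* lowest at 18.76 to 26.03 TPM.

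The PIWI genes themselves stood far apart. *Piwil2*, which lies at 70372477 to 70429383 on chromosome 14 (minus strand, GRCm38), ranked 229th of all gene names by mean TPM. *Piwil4* (chromosome 9, 14696230 to 14740733, minus strand) ranked 6511th and *Piwil1* (chromosome 5, 128702524 to 128755474, plus strand) ranked 8071st. Within single samples the level of *Piwil2* was 11.92 to 14.58 times that of *Piwil4* and 17.23 to 21.27 times that of *Piwil1*. The *Piwil4* to *Piwil1* ratio was 1.313 to 1.528. None of these 3 ratios separated MUT from WT (exact two-sided permutation test, p = 0.5, p = 1.0 and p = 0.2). With 3 samples per group the smallest p this test can give is 0.1. Of the counted exon bases of *Piwil4*, 2.54% overlap a gene on the opposite strand, and fragments over both genes were left out of the counts. The genes outside the PIWI branch with Argonaute domains were lower than *Piwil2*, at mean levels of 56.96 TPM for *Ago1*, 23.17 for *Ago3*, 12.04 for *Ago4* and 4.433 for *Ago2*.

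The first question of the design was whether induction of *Hras* G12V changed these levels. None of the 10 genes passed an FDR of 0.1 in the quasi-likelihood test of edgeR (p-values adjusted by Benjamini-Hochberg over all genes), where 2 of 19656 tested genes did (0.0102%), both lower in MUT. None had an unadjusted p under 0.05, against 547 genes overall (2.78%). DESeq2, run without the filter on low counts, called 9 of 37271 genes (0.0241%), and neither it nor limma voom called any of the 10. With the replicate number as a block, which pairs same-numbered samples, 13 of the 19656 genes were called in edgeR (0.0661%), again none of the 10. DESeq2 with the block called 55 of the 37285 genes with a p-value (0.148%), also none of the 10. Its own filter left some genes of low count without an adjusted p there, so not all 37285 could be called. Whether equal numbers mark littermates is not stated, so these pairs are an assumption. The adjusted p in the unblocked edgeR fit was 0.998 for each of the 10, and with the block the lowest in edgeR was 0.75. In CPM, MUT was the higher in all 3 pairs for 5 of the 10 (*Piwil2*, *Ddx4*, *Tdrd1*, *Tdrd9* and *Mov10l1*), against 14.1% of all tested genes. MUT was the lower in all 3 pairs for none, against 13% of all tested genes. The fitted log2 fold change, MUT over WT, was above 0 for 9 of the 10 genes and 51.8% of all genes tested. Of the 10583 genes at 10 CPM or more, 6149 had a log2 fold change above 0. The median log2 fold change was 0.09 over the 10 genes, 0.01 over all tested genes and 0.02 over the 10583 genes at 10 CPM or more. The 95% confidence interval of each of the 10 genes lay within a 1.5-fold change in either direction. The same was true of 59.1% of all tested genes and 92.0% of those at 10 CPM or more.

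**Figure D3:**
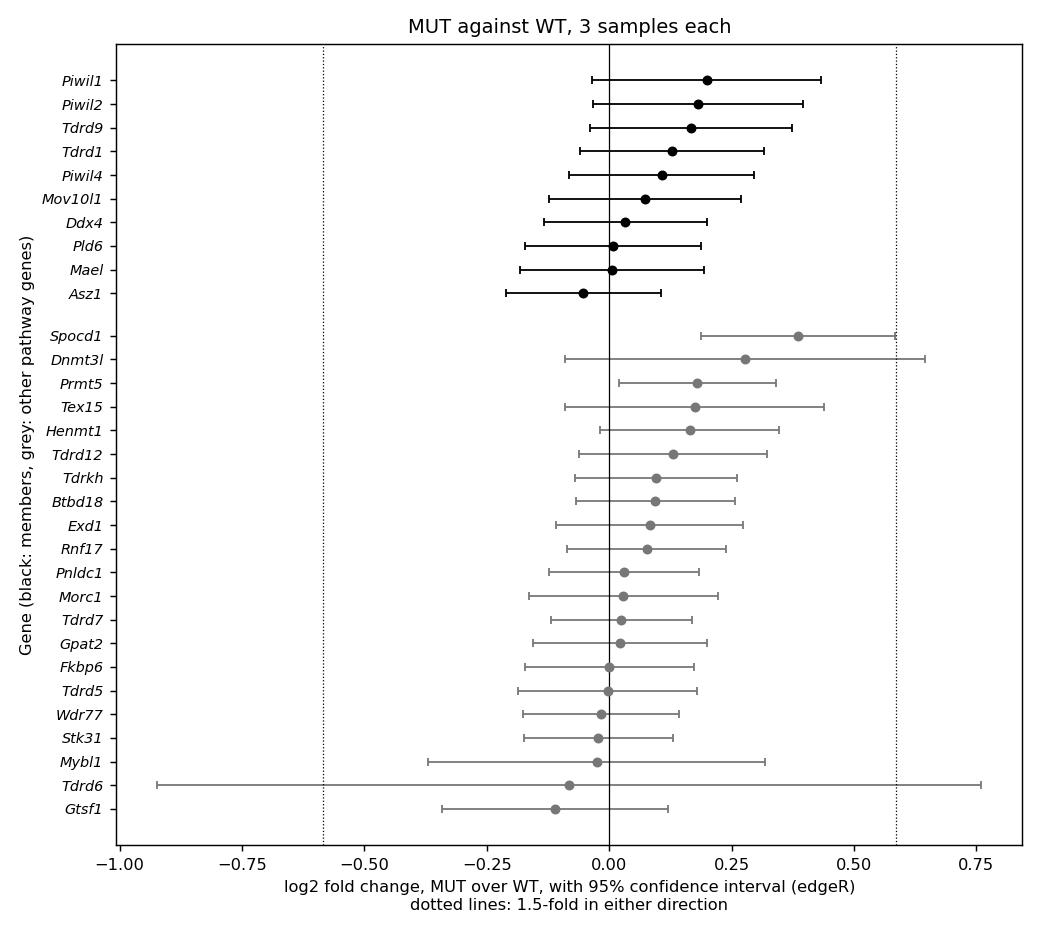
Fitted log2 fold change, MUT over WT (3 samples each), with 95% confidence intervals from edgeR's quasi-likelihood fit, for the 10 piRNA pathway genes (black) and 21 other genes of the pathway (grey). Dotted lines mark a 1.5-fold change in either direction. The intervals of the 10 genes all include 0 and end inside the dotted lines, whereas those of *Spocd1* and *Prmt5* lie above 0.

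Among the PIWI genes, the level of *Piwil2*, the cytoplasmic slicer that starts piRNA amplification, was 431.9, 431.5 and 349.5 TPM in WT replicates 1, 2 and 3 and 474.2, 467.6 and 436.1 TPM in MUT replicates 1, 2 and 3. It was the only gene of the 10 in which every MUT sample stood above every WT sample, a pattern that 4.69% of all tested genes showed. WT replicate 3 was the low sample, and MUT replicate 3 exceeded WT replicate 1 by little. The means were 404 ± 47.5 TPM (SD, n = 3) in WT and 459 ± 20.4 TPM in MUT, and the log2 fold change was 0.18 (standard error 0.094, 95% interval -0.03 to 0.40, edgeR unadjusted p = 0.0875, exact two-sided permutation p = 0.1). Under the replicate block *Piwil2* had an unadjusted p of 0.0519 in edgeR (adjusted p = 0.75) and 0.0357 in DESeq2, and neither called it. In that DESeq2 fit 611 of 37285 genes had an unadjusted p under 0.05. *Piwil4*, the nuclear PIWI protein of transposon methylation, had 33.86, 33.49 and 28.34 TPM in WT and 32.53, 34.18 and 36.59 TPM in MUT. Only WT replicate 3 was below the MUT samples, and the log2 fold change of 0.11 had an interval from -0.08 to 0.30 (exact p = 0.3). *Piwil1*, which binds pachytene piRNAs, had 23.33, 21.91 and 18.76 TPM in WT and 22.30, 26.03 and 25.31 TPM in MUT. MUT replicate 1 lay between the WT samples, so the groups overlapped. Its log2 fold change was the highest of the 10 genes at 0.20 (standard error 0.10, 95% interval -0.03 to 0.43, edgeR unadjusted p = 0.0858, exact p = 0.2). The lowest *Piwil1* level and the highest meiotic and spermatid marker sums, 2245 and 8225 TPM, came from the same library, WT replicate 3. In MUT the highest such sums, 1897 and 6612 TPM, came from replicate 3. *Piwil1* there was at 25.31 TPM, above MUT replicate 1 and below MUT replicate 2. WT replicate 3 also ran low for long genes, as described below. The part of later germ cells in the *Piwil1* level was not tested.

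For each of the 3 helicases the groups overlapped, while within pairs MUT was the higher in 3 of 3 when measured in CPM. In TPM, the unit printed here, *Ddx4* was slightly lower in MUT replicate 2 than in WT replicate 2. *Ddx4* (chromosome 13, 112598333 to 112652475, minus strand), the Vasa helicase of germ granules, had 634.9, 637.2 and 580.3 TPM in WT and 650.4, 636.0 and 614.2 TPM in MUT. Both sets included values near 636 TPM, and the log2 fold change was 0.03 with an interval from -0.13 to 0.20 (exact p = 0.4). *Mov10l1* (chromosome 15, 88982909 to 89055152, plus strand), which unwinds piRNA precursors, had 403.2, 379.6 and 330.1 TPM in WT and 407.7, 393.8 and 371.3 TPM in MUT. The lowest MUT sample was below WT replicates 1 and 2, and the log2 fold change was 0.07 (95% interval -0.12 to 0.27, exact p = 0.5). *Tdrd9* (chromosome 12, 111971559 to 112068854, plus strand), a Tudor helicase that works with the nuclear PIWI protein, had 160.6, 163.6 and 132.8 TPM in WT and 171.5, 183.2 and 159.2 TPM in MUT. MUT replicate 3 was just below WT replicates 1 and 2. The log2 fold change was 0.17 (standard error 0.091, 95% interval -0.04 to 0.37, edgeR unadjusted p = 0.101, exact p = 0.3). In edgeR under the replicate block, *Tdrd9* had an unadjusted p of 0.0498 and an adjusted p of 0.75. There 6.6% of all genes had an unadjusted p under 0.05. In DESeq2 under the block the unadjusted p of *Tdrd9* was 0.0649. When edgeR also corrected for exon length, as described below, the unadjusted p was 0.0324 for *Tdrd9* and 0.0259 for *Piwil2*. Neither gene was called there, and 1341 of 19656 genes had an unadjusted p under 0.05.

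*Tdrd1* and *Mael* act in the germ granules, *Tdrd1* as the Tudor scaffold of MILI and *Mael* in passing transposon and precursor RNAs on for processing. *Tdrd1* (chromosome 19, 56826209 to 56870012, plus strand) had 225.9, 209.3 and 181.3 TPM in WT and 226.6, 228.2 and 220.1 TPM in MUT. The MUT samples lay close together at 225 ± 4.31 TPM (SD, n = 3) and the WT samples at 205 ± 22.6 TPM, with WT replicate 1 inside the MUT range. The log2 fold change was 0.13 with an interval from -0.06 to 0.32 (exact p = 0.2). *Mael* (chromosome 1, 166201201 to 166238747, minus strand) had 734.3, 785.6 and 830.9 TPM in WT and 790.4, 761.4 and 818.7 TPM in MUT. WT samples bracketed the MUT samples, and here WT replicate 3 was the highest of the 6. The *Mael* log2 fold change was 0.01 (95% interval -0.18 to 0.19, exact p = 1.0), and its sign turned under other settings.

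*Asz1* and *Pld6* belong to the mitochondrial step, *Pld6* as the nuclease that cuts precursors at the outer membrane and *Asz1* as its partner in the granules between mitochondria. *Asz1* (chromosome 6, 18050964 to 18109061, minus strand) was nearly constant in WT at 151.5, 152.0 and 152.3 TPM and ranged more widely in MUT at 156.6, 139.1 and 145.3 TPM. The MUT samples lay on both sides of the WT samples. *Asz1* was the only gene of the 10 with a fitted change below 0, at -0.05 (95% interval -0.21 to 0.11, exact p = 0.5). *Pld6* (chromosome 11, 59783897 to 59787645, minus strand) had 77.39, 73.36 and 74.61 TPM in WT and 78.80, 77.16 and 71.29 TPM in MUT. The highest and the lowest sample were both MUT, and its log2 fold change of 0.01 (95% interval -0.17 to 0.19, exact p = 0.8) also turned sign under other settings.

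WT replicate 3 stood apart from the other libraries, and in a way that followed gene length. It was the lowest sample in TPM for the 7 genes with at least 3014 counted exon bases (*Ddx4*, *Mov10l1*, *Piwil1*, *Piwil2*, *Piwil4*, *Tdrd9* and *Tdrd1*), and for none of the 3 shorter ones (*Mael* with 1733 bases, *Pld6* with 1757 and *Asz1* with 2829). On the log2 CPM scale it deviated from the 6-sample mean by -0.26 for *Piwil2*, -0.24 for *Piwil1*, -0.24 for *Tdrd9*, -0.20 for *Tdrd1*, -0.18 for *Piwil4*, -0.16 for *Mov10l1* and -0.07 for *Ddx4*. For *Mael*, *Asz1* and *Pld6* the deviations were 0.12, 0.07 and 0.03. The median deviation of all genes at 10 CPM or more went the same way in this library, from 0.18 at 1000 bases or less to -0.11 above 5000 bases. Each of the 10 genes was lower in this library than the median of all genes in its length class, *Asz1* by less than the rounding here. The class medians were 0.14 at 1000 to 2000 bases (*Mael* and *Pld6*), 0.07 at 2000 to 3000 (*Asz1*), 0.01 at 3000 to 4000 (*Ddx4*) and -0.01 at 4000 to 5000 (*Mov10l1* and *Piwil1*).

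**Figure D4:**
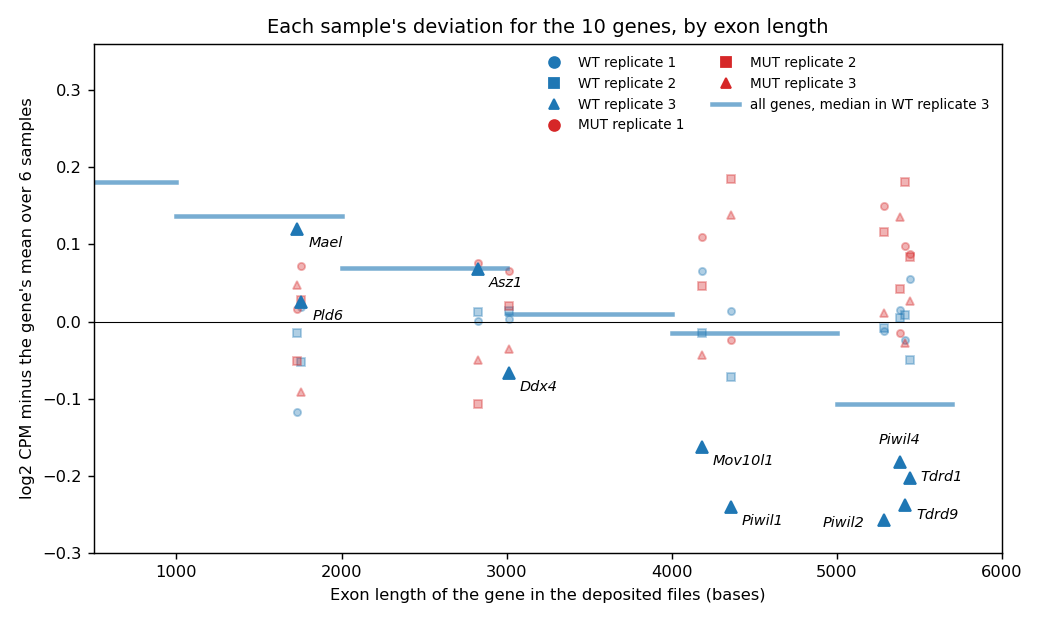
Deviation of each sample from the 6-sample mean (log2 CPM) for the 10 genes, against counted exon length in bases. Large triangles are WT replicate 3 and the small symbols the other 5 samples, and blue bars give the median over all genes at 10 CPM or more in WT replicate 3 for each length class. WT replicate 3 lies below 0 for the 7 longer genes and above 0 for *Mael*, *Pld6* and *Asz1*.

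Without WT replicate 3 the median log2 fold change of the 10 genes was 0.05 instead of 0.09. *Piwil1* then stood at 0.13, *Piwil2* at 0.10, *Tdrd9* at 0.09, *Mael* at 0.07, *Tdrd1* at 0.06, *Piwil4* at 0.05, *Pld6* at 0.02, *Mov10l1* and *Ddx4* at 0.01 and *Asz1* at -0.03, with none called and adjusted p = 0.999 for each in edgeR. With a correction for exon length and all 6 samples the median was 0.08. *Piwil1* was 0.19 and *Piwil2* 0.17 under that correction, and again none was called.

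The other genes of the pathway were counted from a separate list of 22, of which 21 were matched and tested. None of the 21 passed an FDR of 0.1 in edgeR, DESeq2 or limma voom, and 2 had an unadjusted edgeR p under 0.05 (*Spocd1* and *Prmt5*, both higher in MUT), against 2.78% of all tested genes. The log2 fold change was above 0 for 15 of the 21, with a median of 0.03. It was above 0 for 51.8% of all tested genes and 6149 of the 10583 at 10 CPM or more. Every MUT sample stood above every WT sample for 4 of them (*Spocd1*, *Prmt5*, *Dnmt3l* and *Henmt1*), read against the 4.69% of all genes, and for none did every MUT sample stand below. The 95% interval ended within 1.5-fold for 19 of the 21, the exceptions being *Dnmt3l* and *Tdrd6*.

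*Spocd1*, which is needed for piRNA-directed DNA methylation with the nuclear PIWI protein, had the highest fitted change of the list. Its counts were 1714, 1822 and 1513 in WT and 2239, 2060 and 2247 in MUT, or 83.8 ± 10.2 and 110 ± 4.95 TPM (SD, n = 3 each). The lowest MUT sample exceeded the highest WT sample. The log2 fold change was 0.39 (standard error 0.087, 95% interval 0.19 to 0.58), with an unadjusted p = 0.00184 and an adjusted p = 0.998 in edgeR. Over all alternatives its lowest adjusted p was 0.15, in DESeq2 with the replicate block. *Dnmt3l*, the cofactor of the methyltransferases that silence transposons, followed at 0.28 on 81, 73 and 78 counts in WT and 97, 89 and 93 in MUT (unadjusted p = 0.121). *Prmt5*, the arginine methyltransferase that prepares PIWI proteins for Tudor binding, had 3311, 3432 and 3146 counts in WT and 3796, 3761 and 3551 in MUT. Its log2 fold change was 0.18 (95% interval 0.02 to 0.34, edgeR unadjusted p = 0.0325, adjusted p = 0.998).

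At the other end of that list were *Gtsf1*, a partner of PIWI proteins in slicing, at -0.11 (95% interval -0.34 to 0.12), *Tdrd6* at -0.08 and *Mybl1*, the gene of A-MYB, at -0.03. *Tdrd6*, a Tudor protein best known from spermatocytes and spermatids, had 350, 557 and 687 counts in WT and 302, 364 and 828 in MUT. It was highest in replicate 3 of both groups, as the meiotic marker sum was (2245 TPM in WT, 1897 TPM in MUT), and its interval was wide, from -0.92 to 0.76. The part of later germ cells in the *Tdrd6* level was not tested. By level, *Fkbp6*, a co-chaperone of PIWI loading, led the list at 959 TPM, above each of the 10 genes, followed by *Gpat2* at 271.9 and *Pnldc1*, the trimmer of piRNA ends, at 266.6 TPM. *Tdrd6*, *Mybl1* and *Dnmt3l* were the lowest at 11.68, 7.785 and 4.596 TPM. The E-box described above was in the windows of 4 of the 14 genes of this list that had a window (28.6%), and in none of 7 genes of the AGO clade and microRNA machinery.

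The 5 markers of differentiating spermatogonia and the 10 genes each separated the groups in their summed TPM, and they were not alone in this. Among the other pathway genes, those of arginine methylation did so (210.0 to 224.1 TPM in WT, 225.1 to 242.2 in MUT). So did those of nuclear silencing (426.0 to 552.6 TPM in WT, 555.1 to 572.0 in MUT). The groups overlapped for every other list. The 5 markers summed to 1120, 1180 and 1170 TPM in WT and 1293, 1442 and 1239 TPM in MUT. The 10 genes summed to 2877, 2888 and 2679 TPM in WT and 3011, 2947 and 2898 TPM in MUT. For the 5 markers and for the 10 genes MUT was thus the higher in TPM without overlap, MUT replicate 3 only just so for the 10 genes. Summed as CPM, the scale of the fits, the 10 genes did not separate the groups. MUT replicate 3 then fell just below WT replicate 1. Singly, every MUT sample stood above every WT sample only for *Piwil2* of the 10 genes and for *Stra8* and *Sohlh2* of the 5 markers. That pattern was shown by 4.69% of all tested genes. None of the 5 markers was called in edgeR, and 2 had an unadjusted p under 0.05, against 2.78% of all tested genes. Other marker lists went the other way. Spermatid markers summed to 6780, 5079 and 8225 TPM in WT and 3433, 3573 and 6612 TPM in MUT, lower in MUT in 3 of 3 pairs though the groups overlapped. With the replicate block *Tnp1*, which packs spermatid chromatin, was called lower in MUT in edgeR (adjusted p = 0.0794), as was *Jchain* of the B lineage (adjusted p = 0.0257). DESeq2 with the block also called *Prm1*, *Tnp2*, *Pgk2* and *Ighm* lower, and no marker was called in edgeR without the block. The median log2 fold change was -0.18 over the 9 markers of undifferentiated spermatogonia, none of them called with or without the block, and -0.55 over the 6 spermatid markers. The part of differentiating, later germ or B lineage cells in the values of the 10 genes was not tested.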

How the data were processed

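RNA of sorted tdTomato+ MCAM-bright undifferentiated spermatogonia from 3 WT and 3 MUT mice was sequenced as paired ends. Per sample, the authors deposited 1 raw count for each gene name. featureCounts 1.6.2 had assigned the fragments to exons of GENCODE vM17 (GRCm38.p6) with a *tdTomato* entry, without regard to strand, and with fragments of several places or several genes left out, so genes that overlap others are undercounted. The submitters' processing notes name STAR, whose version is not given in the sources used here. Groups and replicate numbers were taken from the sample titles.

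Counts were fitted in R 4.3.3 with edgeR 4.0.16 (TMM, filterByExpr, 19656 genes, quasi-likelihood test, FDR 0.1). CPM were TMM-scaled and TPM used the exon lengths in the files. Exact permutation tests used CPM for single genes, also where TPM are printed beside them, and TPM for the ratios between genes. Depth was 22729292 to 23550433 counts per sample, and floors of 3 counts cover counting error only. No replicates agreed within sampling noise (chi-square per degree of freedom 4.25 to 24.5). Same-numbered WT and MUT samples deviated together over 10583 genes (r = 0.304, 0.156 and 0.395), although WT replicate 2 correlated more with MUT replicate 1 (r = 0.326) than with MUT replicate 2. The methods state that controls were littermates without saying which. The numbers were taken as pairs because each of the 3 correlations exceeded 0.1, and the block was run as an alternative. Other alternatives were DESeq2 1.42.0 on all genes with at least 1 count, limma 3.58.1 voom, DESeq2 size factors in edgeR, other filters, an FDR of 0.05, RPKM for TPM, and each sample left out. A loess correction for exon length (span 0.3) was chosen after seeing the data. Scripts were tested on simulated counts.

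The genes described and the lists were chosen with earlier results of these data known. Named beside the 10 genes were, of the other pathway genes, any called without the block and the 3 highest and 3 lowest by log2 fold change and by TPM, the *Ago* genes, the 3 genes most alike to each PIWI gene, and *Hras* and *tdTomato*. *Henmt1*, the markers called with the block and the exceptions of a count were named after their values were seen. *Dnmt3c* was not matched in the files. Promoter windows came from RefSeq (GRCm38.p6), with none for *Piwil2*.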

Additional observations from a re-analysis of the deposited data

How the results depend on the processing

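None of the 10 genes, and none of the 21 other pathway genes, was called under any alternative, with a lowest adjusted p among the 10 of 0.608 (*Tdrd9*, edgeR without MUT replicate 3). The number of genes called over the whole table, 2, moved to 9 with DESeq2, which also tested more genes (37271 against 19656), 4 with limma voom, 5 in edgeR without a filter, 0 with at least 10 counts in every sample (edgeR, 479 at an unadjusted p under 0.05) and 1 at an FDR of 0.05, and ranged from 0 to 6 when samples were left out: 5 without WT replicate 3, 1 without MUT replicate 1, 0 without MUT replicate 2 (292 at an unadjusted p under 0.05) and 6 without MUT replicate 3. With the replicate number as a block it was 13 in edgeR, 55 in DESeq2 (37285 genes with a p-value) and 13 in edgeR with the exon length correction added, and the block changed no call among the pathway genes. The sign turned for *Mael* at a minimum of 10 counts (-0.0066, the range over left-out samples being -0.058 to 0.07) and for *Pld6* (-0.0052, range -0.0341 to 0.0546), and the cause was not tested. Over all settings 7 to 9 of the 10 genes were above 0, and their median log2 fold change ranged from 0.05 to 0.13. As RPKM, a unit with another total, the levels were 210.5 for *Mael*, 167.2 for *Ddx4*, 115.4 for *Piwil2*, 101.8 for *Mov10l1*, 57.51 for *Tdrd1*, 43.24 for *Tdrd9*, 39.98 for *Asz1*, 20.18 for *Pld6*, 8.863 for *Piwil4* and 6.129 for *Piwil1*, in the same order. Depth was no limit for these genes, whose lowest count was 532.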

Other observations

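The Argonaute genes outside the PIWI branch and the microRNA processing genes, 8 in all, had a median fitted log2 fold change of 0.13. The change was above 0 for 7 of these genes, against 51.8% of all tested genes and 6149 of the 10583 at 10 CPM or more. None was called by edgeR or DESeq2, and 1 had an unadjusted edgeR p under 0.05 (against 2.78% of all tested genes). *Ago2*, the slicing Argonaute of the microRNA pathway, had the highest at 0.24 (95% interval 0.01 to 0.47, edgeR unadjusted p = 0.0453, adjusted p = 0.998), with every MUT sample above every WT sample, as for 4.69% of all tested genes. *Ago1* was at 0.21 (unadjusted p = 0.0798), *Ago3* at 0.16 and *Ago4* at 0.01. The summed level of these 8 genes was lowest in WT replicate 3, at 556.1 TPM against 687.3 to 733.2 TPM in the other 5 samples.

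Over the 6 samples the genes with the pattern most like each PIWI gene were, by Pearson correlation of log2 CPM among 10582 genes, *Nes* (r = 0.998), *Nhsl2* (0.996) and *Palm* (0.986) for *Piwil1*, *Erbb2* (0.998), *Rrp8* (0.993) and *Dgcr14* (0.993) for *Piwil2*, and *Dclre1a* (0.993), *Hipk2* (0.979) and *Sept3* (0.977) for *Piwil4*. With 6 points and so many genes, values this high are a description of these libraries, which share the low WT replicate 3. Among the 10 genes, *Piwil2* correlated with *Tdrd9* (r = 0.955) and *Tdrd1* (0.942) and had a negative correlation with *Mael* (-0.552), again over samples that include WT replicate 3. The *Ddx4* to *Piwil2* ratio of TPM was 1.47, 1.477 and 1.66 in WT and 1.372, 1.36 and 1.408 in MUT, every MUT sample below every WT sample (exact two-sided permutation p = 0.1, the smallest possible). It was picked out of 7 ratios computed and was not adjusted for that number.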
